A study of Rattus norvegicus with 45 samples.

Results

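The genes described here export sterols from cells, take cholesterol up from HDL or govern sterol export: Abcg5, Abcg8, Abca1, Abcg1, Scarb1 and Nr1h3. They are 6 of the 14217 genes named on the array and hold 12 of its 31042 tested probe sets, taken by their gene symbols in the array's annotation. The symbols were listed with earlier results of these arrays known, and Abcg5 and Abcg8 were chosen by how they differed between the groups. Which comparison was used for that choice was not recorded, so their differences between groups are given as a description, with no p-value and no call. Counts of calls are over the other 4 genes, except in the closing section on processing, where they are over all 6. Abcg5 and Abcg8 have 1 probe set each, Abca1 has 4, Abcg1 has 3, Scarb1 has 2 and Nr1h3 has 1. Where a gene has several, the probe set of highest mean score stands for it unless another is named.

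The study measured liver RNA of adult male Sprague-Dawley rats, an outbred strain, aged 10 weeks and dosed by gavage. The groups were triadimefon at 175 mg/kg/day, myclobutanil at 225 mg/kg/day and controls, each at 6 h, 24 h and 14 days, with 5 arrays per group by the sample titles. What the controls received is not given in the sources used here, the doses of the compounds differ, and the labels conflict on animals (the design text counts 15 livers and the labelling protocol 3 rats for each treatment), so the p-values measure the spread between arrays so titled. Both compounds are triazole fungicides, which act on fungi by blocking CYP51, an enzyme of sterol synthesis. The deposited values behave like logarithms, of a base that is not stated, with array medians between -0.011 and 0.033, and all differences are in score units. A probe set was called at an adjusted p under 0.05 in the fit over all probe sets. The arrays that stand apart in the results below are array 3 of the 24 h controls, high for Abcg5 and Abcg8, array 2 of the same controls, with the highest 99th percentile of all arrays (3.52), and array 4 of triadimefon at 14 days, with the highest Abcg5 and Abcg8 scores. All 5 measured hepatocyte markers had high mean scores, from 2.28 for Tat to 4.88 for Alb.

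ABCG5 and ABCG8 are subunits, each part of a transporter, that work only as a pair. In the hepatocyte the pair sits in the canalicular membrane and moves cholesterol and plant sterols into bile, and people who lack either one accumulate plant sterols. The other members act on the other side of the cell or above it: ABCA1 loads cholesterol onto apolipoprotein A-I, ABCG1 loads it onto HDL particles and is abundant in macrophages, and SCARB1 (SR-BI) takes cholesterol up from HDL. NR1H3 is LXR alpha, the oxysterol-activated receptor that switches on Abcg5, Abcg8, Abca1 and Abcg1.

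Abcg5 and Abcg8 lie head to head, and the bases between their start sites are shown because both genes read out from them. In the RefSeq annotation of GRCr8 the starts on chromosome 6 are 205 bases apart, at chr6:15717731-15717935, with Abcg5 on the plus strand and Abcg8 on the minus strand. The capitals mark the motif GATAA, the core that GATA factors bind.
Abcg5 and Abcg8 intergenic bases: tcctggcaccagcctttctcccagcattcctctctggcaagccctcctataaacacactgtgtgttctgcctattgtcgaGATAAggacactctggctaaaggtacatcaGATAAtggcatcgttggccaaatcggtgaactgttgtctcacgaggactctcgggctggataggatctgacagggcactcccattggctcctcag
The 300-base promoter windows of RefSeq, 250 bases before each start and 50 after it, overlap by 295 bases for these genes. GATAA occurred 2 times in the Abcg5 window, 125 and 95 bases before its start on the plus strand, and 26.5% of 33469 promoter windows of that length hold it on either strand. TATAAA occurred 1 time in these bases, at position -158 counted from the start of Abcg5, and lies in both windows because they overlap (14.2% of windows hold it). Neither AAGGTCA, a site of orphan nuclear receptors (4.61% of windows), nor a DR4, the direct repeat spaced by 4 bases that LXR binds (0.0807% of windows), was found on either strand. The motifs were chosen after the sequences were seen. Of the 6 genes 4 matched a promoter window: Abcg5, Abcg8, Abca1 and Nr1h3.

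At 6 h Abcg5 and Abcg8 differed little between the groups. Abcg5 scored 0.48, 0.82, 0.73, 0.85 and 0.73 with triadimefon, 0.58, 0.57, 0.996, 1.06 and 0.88 with myclobutanil, and 0.96, 0.33, 0.54, 0.97 and 0.97 in controls. Abcg8 scored -0.06, 0.14, 0.11, 0.10 and 0.07 with triadimefon, -0.03, -0.16, 0.36, 0.09 and 0.35 with myclobutanil, and 0.42, -0.20, -0.02, 0.21 and 0.25 in controls. All 3 groups overlapped for both genes. For Abcg5 the difference from control was -0.03 ± 0.16 with triadimefon and 0.06 ± 0.16 with myclobutanil (SE of the fit, n = 5 each). For Abcg8 the differences were -0.06 ± 0.14 with triadimefon and -0.01 ± 0.14 with myclobutanil, and 0 of the other 4 genes was called with either compound, against 0.915% of all probe sets with triadimefon and 0.38% with myclobutanil. File-name endings on the arrays differ at 6 h, and among arrays of the commonest ending the Abcg5 difference with myclobutanil was -0.39, so no direction is drawn from 6 h.

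At 24 h Abcg5 was high with both compounds. Its scores were 0.97, 0.88, 1.17, 1.24 and 1.23 with triadimefon, 0.81, 0.81, 0.99, 0.66 and 1.02 with myclobutanil, and 0.27, 0.48, 0.84, 0.23 and 0.09 in controls. Every triadimefon array was above every control array, while 1 control array, number 3, lay among the myclobutanil arrays. Abcg8 scored 0.28, 0.12, 0.48, 0.53 and 0.28 with triadimefon, 0.22, 0.20, 0.31, 0.01 and 0.30 with myclobutanil, and -0.11, -0.12, 0.38, -0.11 and -0.24 in controls. Again control array 3 was the high one, and apart from it the treated arrays were all above the controls. Against control, Abcg5 differed by 0.72 ± 0.16 with triadimefon and by 0.48 ± 0.16 with myclobutanil. Abcg8 differed by 0.38 ± 0.14 and 0.25 ± 0.14 in the same order of compounds. Without control array 3 these differences were 0.83 and 0.59 for Abcg5 and 0.48 and 0.35 for Abcg8. Of the other 4 genes, 0 was called with triadimefon and 1 with myclobutanil at 24 h, against 7.98% and 8.47% of all probe sets.

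At 14 days the compounds parted. Abcg5 scored 1.10, 1.15, 0.96, 1.88 and 0.65 with triadimefon, -0.06, 0.12, 0.13, 0.02 and 0.51 with myclobutanil, and 0.66, 0.15, -0.10, 0.34 and 0.38 in controls. Abcg8 scored 0.53, 0.66, 0.47, 1.27 and 0.07 with triadimefon, -0.35, -0.24, -0.22, -0.34 and 0.07 with myclobutanil, and 0.20, -0.11, -0.30, -0.01 and -0.05 in controls. For both genes all 5 triadimefon arrays were above all 5 myclobutanil arrays, though for Abcg8 by little, with 0.074 on the lowest triadimefon array and 0.070 on the highest myclobutanil array. The lowest triadimefon array, number 5, lay below the highest control for both genes. The spread among triadimefon arrays was the widest of the 9 groups for both genes, with SDs of 0.45 for Abcg5 and 0.43 for Abcg8. Triadimefon minus control was 0.86 ± 0.16 for Abcg5 and 0.65 ± 0.14 for Abcg8, and without triadimefon array 4 it was 0.68 and 0.48. Myclobutanil minus control was -0.14 ± 0.16 for Abcg5 and -0.16 ± 0.14 for Abcg8. Of the other 4 genes, 1 was called with triadimefon and 0 with myclobutanil at 14 days, against 6.69% and 0.792% of all probe sets.

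**Figure D1:**
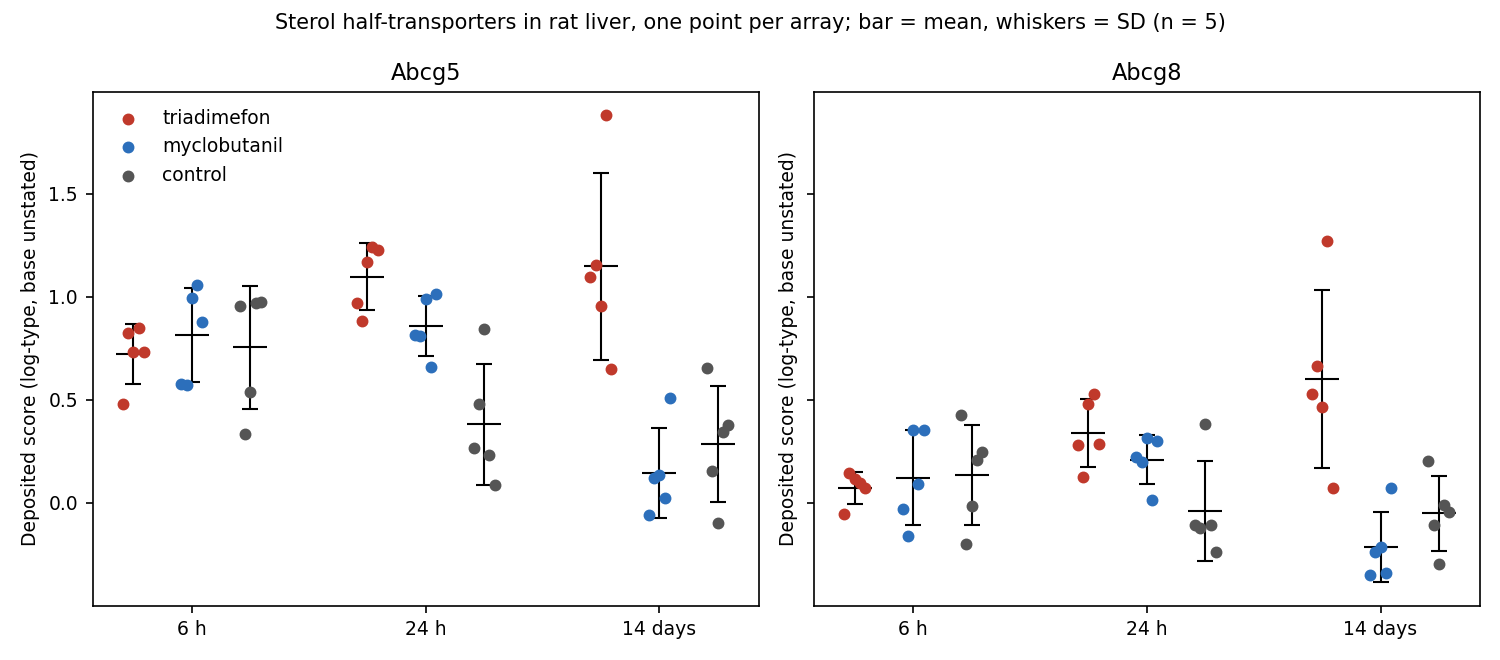
Deposited scores of Abcg5 (left) and Abcg8 (right) on each of the 45 arrays, by time on the horizontal axis and, within a time, triadimefon, myclobutanil and control. The horizontal bar is the mean and the whiskers the SD (n = 5); at 14 days all triadimefon arrays lie above all myclobutanil arrays, with 1 array at 1.88 for Abcg5 and 1.27 for Abcg8.

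Set directly against each other at 14 days, triadimefon minus myclobutanil was 1.003 ± 0.16 for Abcg5 and 0.82 ± 0.14 for Abcg8. Abcg5 had the third highest and Abcg8 the sixth highest difference of the 31042 probe sets. Both were chosen by how they differed between groups, so these places are a description and no evidence that the pair stands out. Of the other 4 genes 0 was called in this comparison, against 0.332% of all probe sets. At 6 h the compounds differed by -0.09 ± 0.16 for Abcg5 and -0.05 ± 0.14 for Abcg8 (0 of the other 4 genes called, 0.251% of probe sets), and at 24 h by 0.24 ± 0.16 and 0.13 ± 0.14 (0 of the other 4 called, 1.06% of probe sets). The 95% interval of the Abcg5 difference at 24 h ran from -0.08 to 0.56. The compounds were given at unequal doses, so these are differences between the treatments as given.

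The control level of Abcg5 at the 3 times was as follows. Its mean ± SD in controls was 0.75 ± 0.30 at 6 h, 0.38 ± 0.29 at 24 h and 0.29 ± 0.28 at 14 days, and the difference of 24 h from 6 h was -0.37 ± 0.16. With myclobutanil the means were 0.82 ± 0.23 at 6 h, 0.86 ± 0.15 at 24 h and 0.15 ± 0.22 at 14 days. With triadimefon they were 0.72 ± 0.15, 1.10 ± 0.16 and 1.15 ± 0.45 at the same times. The triadimefon means were thus highest at the later times, and the control means lowest there. The Abcg5 effect of triadimefon was larger at 24 h than at 6 h by 0.75 ± 0.23, and the effect of myclobutanil at 14 days minus that at 24 h was -0.62 ± 0.23. Of the other 4 genes 0 was called for the change of either compound's effect between 6 h and 24 h (3.13% of probe sets with triadimefon, 1.75% with myclobutanil).

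In the order of group means, Abcg5 stood highest with triadimefon at 14 days and 24 h and then with myclobutanil at 24 h. The 3 groups of 6 h followed within 0.09 of each other, myclobutanil first, then controls, then triadimefon. Controls at 24 h and 14 days and myclobutanil at 14 days were lowest. Of the 8 steps between neighbours in this order, 2 exceeded the larger SD of the pair, that below triadimefon at 24 h and that below triadimefon at 6 h, and the ranges of all neighbours overlapped. The same 3 groups came first and the same 3 last for Abcg8, from 0.60 ± 0.43 with triadimefon at 14 days to -0.22 ± 0.17 with myclobutanil at 14 days (SD, n = 5 each), and none of its 8 steps exceeded the larger SD.

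The pair moved together from array to array within a group, a measure that the differences between groups do not enter. After each group's mean was taken out, Abcg5 and Abcg8 correlated over the 45 arrays with Pearson r = 0.926 and Spearman rho = 0.897. The two-sided p from permutation within groups was 1e-05 for each, the smallest the permutations can give, and the adjusted p over the 66 pairs of probe sets was 1.3e-04 for r and 2.2e-04 for rho. Without the 2 arrays farthest from the median of Abcg5, r was 0.892, and after quantile normalization it was 0.937. The within-group SD was 0.264 for Abcg5 and 0.228 for Abcg8, larger than that of 99.2% and 98.7% of all probe sets. Whether each array is a separate rat is not settled by the labels. No probe set of another member passed the adjusted threshold with Abcg5: the strongest was that of Abcg1 with r = 0.379 (rho = 0.312, permutation p = 0.031 for r and 0.062 for rho, adjusted p = 0.093 and 0.18). Without the 2 farthest arrays that r was 0.241. For Nr1h3, the LXR gene, r with Abcg5 was -0.149 (rho = -0.176, permutation p = 0.39 for r and 0.29 for rho, adjusted p = 0.6 and 0.5).

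**Figure D2:**
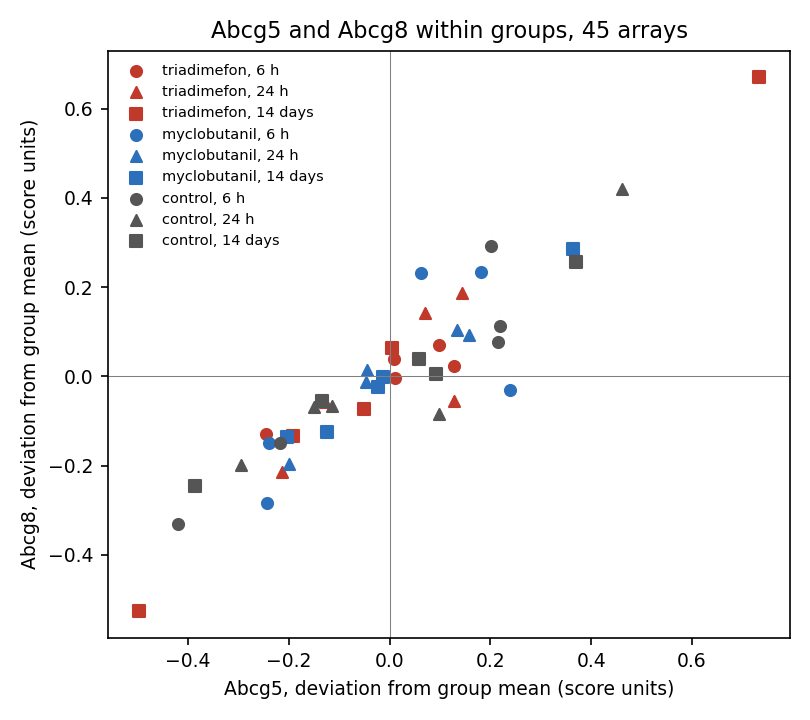
Deviation of each array from its group's mean score for Abcg5 (horizontal axis) and Abcg8 (vertical axis), in score units, 45 arrays coloured by treatment and shaped by time. The points follow a single rising line (r = 0.926), with array 4 of triadimefon at 14 days at the upper right.

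Over all arrays with group differences left in, the genes most like the mean of Abcg5 and Abcg8 among 14215 genes were Nfe2 (r = 0.74), a transcription factor known from red cell and platelet precursors, Lysmd2 (0.64), Abcb1a (0.61), which pumps drugs out of cells, Cdk19 (0.58), a kinase of the Mediator complex, and Pla2g12a (0.56), a secreted phospholipase. With group means taken out the values were 0.67, 0.51, 0.46, 0.46 and 0.18 in that order. The most opposite genes, with group differences left in, were Tkfc (r = -0.77), Tssc4 (-0.73), Gbe1 (-0.69), Pklr (-0.66) and Rbfa (-0.66). Nfe2 had a low mean score of -0.12 over all arrays, below every array median. Nfe2 averaged 0.02 ± 0.26 with triadimefon, -0.16 ± 0.06 with myclobutanil and -0.30 ± 0.05 in controls at 24 h, and 0.08 ± 0.33, -0.26 ± 0.10 and -0.20 ± 0.12 in the same order of groups at 14 days (SD, n = 5 each). Like Abcg5 at 14 days, Nfe2 had its widest spread with triadimefon. Among the other members Abcg1 came in at place 229 of these genes (r = 0.35), and Nr1h3 at 12531 (r = -0.35). These arrays share their groups, so the values describe likeness only.

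Abca1, the exporter to apolipoprotein A-I, gave different pictures by probe set. Its brightest, 1382431_at, split the arrays: 13 of the 45 scored 0.716 to 0.974 and the other 32 scored 1.25 to 2.13. Both kinds occurred in every group, with 1 or 2 low arrays among each 5: 2 of 5 with triadimefon, 1 of 5 with myclobutanil and 2 of 5 in controls at 6 h, 1, 2 and 2 of 5 in that order at 24 h, and 1 of 5 in each group at 14 days. On 1394490_at the same 13 arrays were the 13 lowest, at 0.065 to 0.303 against 0.366 to 1.03 for the rest, with no wide gap between them: its widest gap, 0.437 to 0.516, had 15 arrays below it. On 1383355_at they were not set apart, at 1.04 to 1.25 against 0.865 to 1.44, nor on 1384381_at, at 0.230 to 0.458 against 0.107 to 0.563. The split probe set had a within-group SD of 0.440, wider than that of 99.9% of all probe sets, and its differences from control, between -0.09 and 0.06, had an SE of 0.27. Differences of that size were not detectable against this spread.

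**Figure D3:**
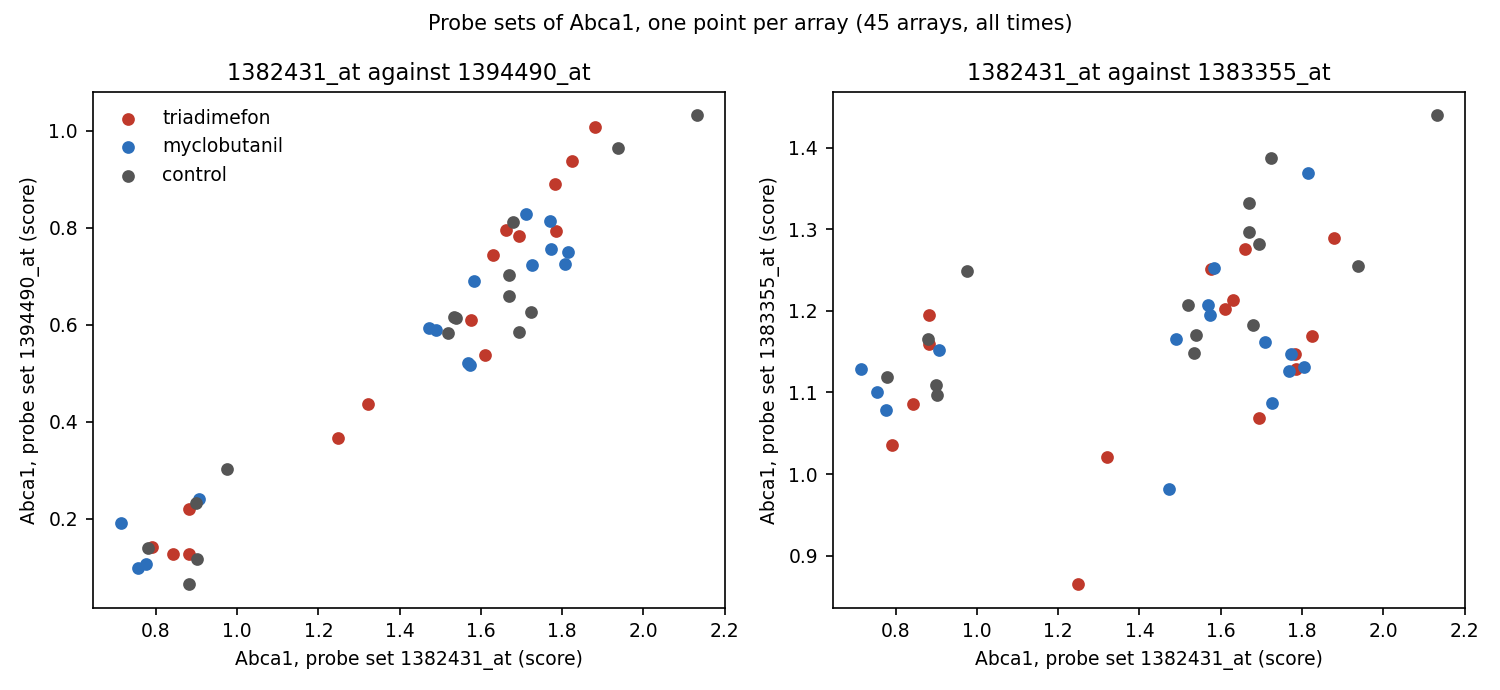
Scores of Abca1 probe set 1382431_at (horizontal axes) against 1394490_at (left) and 1383355_at (right), 1 point per array, coloured by treatment. On the left 13 arrays of all treatments are set apart on the horizontal axis and are the lowest on the vertical axis, without a clear gap there; on the right the same arrays lie within the range of the others on the vertical axis.

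The 2 probe sets of Abca1 without that split were lower with triadimefon at 24 h. On 1383355_at the arrays scored 1.07, 1.02, 1.04, 1.15 and 0.86 with triadimefon and 1.21, 1.39, 1.25, 1.10 and 1.30 in controls, so 1 triadimefon array, number 4, lay above the lowest control. The difference was -0.22 ± 0.05 (limma, adjusted p = 0.0037), and -0.14 after quantile normalization (limma, adjusted p = 0.025). On 1384381_at it was -0.16 ± 0.05 (limma, adjusted p = 0.03), a call that was lost without any 1 of control arrays 2, 3 and 5 or triadimefon arrays 2, 3 and 5 (adjusted p of 0.062 to 0.12). With myclobutanil at 24 h these probe sets differed by -0.11 ± 0.05 and -0.11 ± 0.05 (limma, adjusted p = 0.17 and 0.12), and triadimefon minus myclobutanil was -0.11 ± 0.05 and -0.04 ± 0.05 (0.39 and 0.85), so the compounds were not told apart. At 14 days triadimefon minus control was 0.07 ± 0.05 and 0.11 ± 0.05 (limma, adjusted p = 0.43 and 0.15), and the change of the triadimefon effect between 24 h and 14 days was called for both (0.29 ± 0.07 and 0.26 ± 0.07, limma, adjusted p = 0.0067 and 0.008). Neither 24 h difference was called in a fit of triadimefon and controls of 24 h alone (adjusted p = 0.094 and 0.22). These probe sets were also lower at 6 h, without a call. With myclobutanil the 6 h differences were -0.18 ± 0.05 and -0.18 ± 0.05 (limma, adjusted p = 0.1 and 0.06). With triadimefon they were -0.11 ± 0.05 and -0.12 ± 0.05 (limma, adjusted p = 0.35 and 0.27). On 1384381_at every myclobutanil array of 6 h lay below every control. File-name endings differ between the groups of 6 h.

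Abcg1, the exporter to HDL, was lower with myclobutanil at 24 h. It scored 0.39, 0.33, 0.37, 0.33 and 0.35 with myclobutanil and 0.53, 0.51, 0.57, 0.38 and 0.55 in controls, where 4 of 5 controls lay above all myclobutanil arrays. The difference was -0.15 ± 0.04 (limma, adjusted p = 0.011), and Abcg1 was the 1 gene of the other 4 called there. It stayed called when any 1 array was left out. With triadimefon at 24 h it scored 0.41, 0.42, 0.47, 0.56 and 0.49, not distinguishable from controls (-0.04 ± 0.04), and triadimefon minus myclobutanil was 0.11 ± 0.04 (limma, adjusted p = 0.2). The calls rest on probe set 1368103_at. The other Abcg1 probe sets, 1387054_at and 1373995_at, differed with myclobutanil at 24 h by 0.02 ± 0.02 and -0.01 ± 0.02 and were not called, and the mean over all 3 was not called either (-0.05, limma, adjusted p = 0.099).

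Kupffer cell markers, which stand for liver macrophages, a cell that also uses Abcg1, were lower on the same arrays. With myclobutanil at 24 h 9 of 9 measured markers fell, from Clec4f (-0.79) to Cd163 (-0.22), with a median difference of -0.43 against -0.01 over all genes. Of all probe sets 5.42% fell there. The mean score of the list was 0.82 to 1.11 per array with myclobutanil and 1.16 to 1.67 in controls, so the groups did not overlap. With triadimefon at 24 h 0 of 9 passed (median -0.08, list mean 1.15 to 1.56 per array), and 6 of 9 were higher with triadimefon than with myclobutanil. Of all probe sets 7.98% were called with triadimefon at 24 h, and 0.322% were higher with triadimefon than with myclobutanil. The part of the Kupffer cell markers in the Abcg1 result was not tested. In bulk tissue fewer cells of a type and less RNA per cell cannot be told apart. Of sinusoidal endothelium markers 2 of 5 fell with myclobutanil at 24 h, Lyve1 (-0.20) and Pecam1 (-0.11), and none of the markers of hepatocytes (5 measured), bile ducts (3), stellate cells (5), erythroid cells (3) or small intestine (4) was called there. With 8.47% of all probe sets called there, no call among so few genes is near that share.

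At 14 days Abcg1 with triadimefon scored 0.53, 0.53, 0.54, 0.63 and 0.44, against 0.53, 0.32, 0.33, 0.37 and 0.43 in controls. The difference was 0.14 ± 0.04 (limma, adjusted p = 0.031), which was lost without any 1 of control arrays 2, 3 and 4 or triadimefon arrays 1, 3 and 4 (adjusted p of 0.052 to 0.11), and in a fit of those groups alone (limma, adjusted p = 0.079). With myclobutanil at 14 days Abcg1 scored 0.41, 0.36, 0.41, 0.60 and 0.45 and differed by 0.05 ± 0.04, which was not called. Between 24 h and 14 days the Abcg1 effect shifted upward with both compounds, by 0.18 ± 0.06 with triadimefon and 0.20 ± 0.06 with myclobutanil (limma, adjusted p = 0.033 and 0.032). That is 1 of the 4 genes in each, where 12.7% of probe sets were called with triadimefon and 4.56% with myclobutanil. These shifts share the controls of both times. Both calls were lost after quantile normalization, and without any 1 of 24 h control arrays 2, 3 and 5, 14-day control arrays 2, 3 and 4, or array 4 of the compound's 14-day group. The triadimefon call was also lost without triadimefon array 1 or 2 of 24 h, and the myclobutanil call without myclobutanil array 2 or 4 of 24 h.

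**Figure D4:**
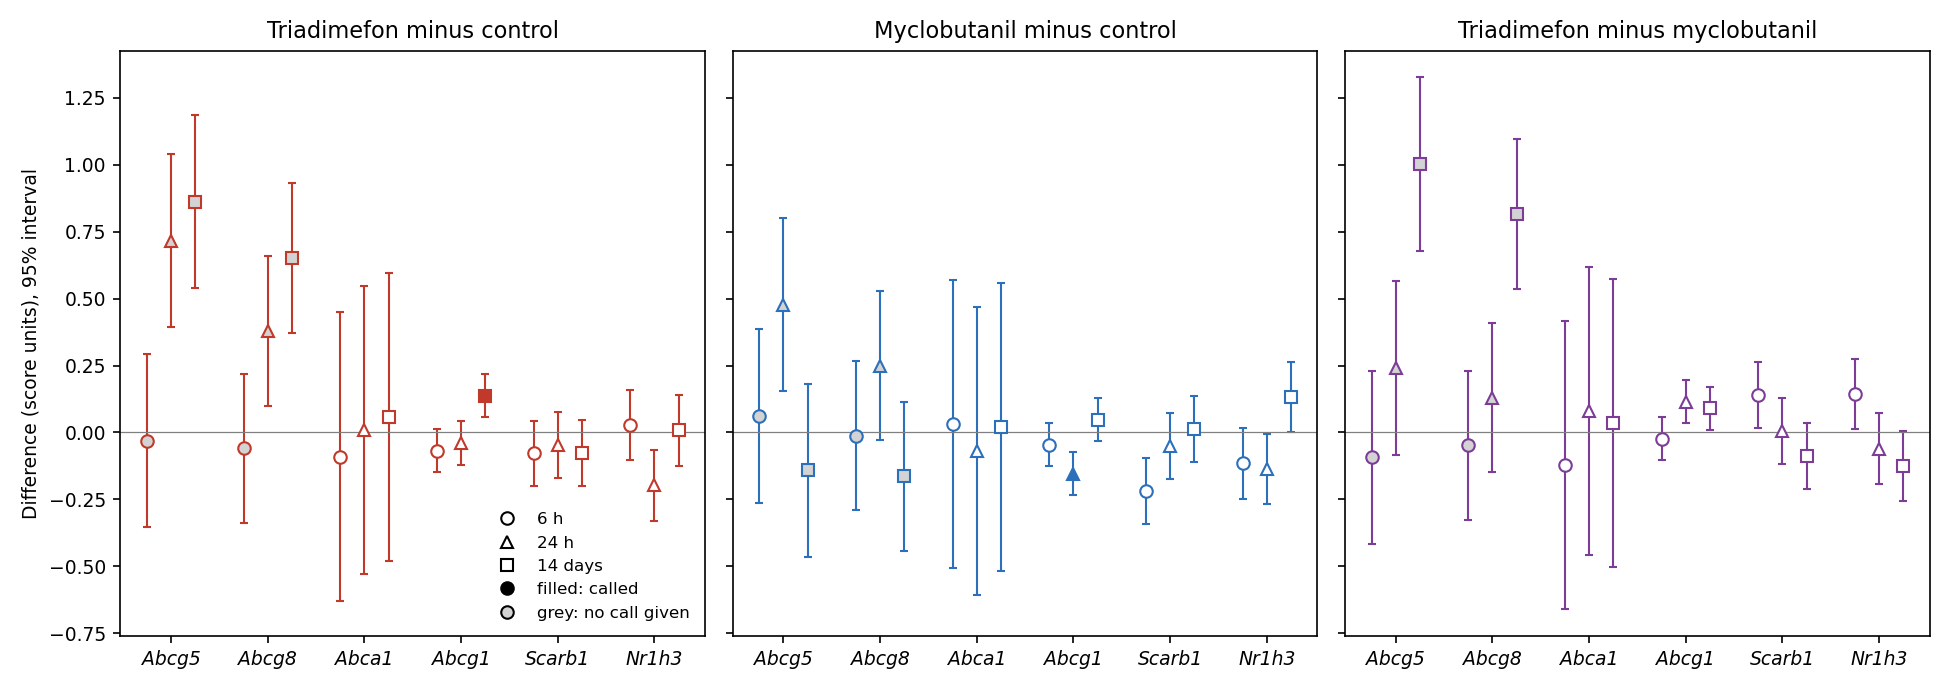
Differences in score units with 95% intervals from the fit for the 6 genes (horizontal axis), triadimefon minus control (left), myclobutanil minus control (middle) and triadimefon minus myclobutanil (right), at 6 h (circles), 24 h (triangles) and 14 days (squares). Filled symbols were called, and grey ones, Abcg5 and Abcg8, are given without a call; in the left and right panels Abcg5 at 14 days is the farthest from 0, and the intervals of Abca1 are the widest.

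Scarb1, the HDL receptor, gave no call in any treatment comparison. Its nearest was myclobutanil at 6 h, with 0.91, 1.06, 0.91, 0.91 and 0.98 against 1.03, 1.40, 1.09, 1.10 and 1.24 in controls. There 4 of 5 myclobutanil arrays lay below all controls, and the difference was -0.22 ± 0.06 (limma, adjusted p = 0.1). After quantile normalization it was called at -0.22 (limma, adjusted p = 0.017), while among arrays of file-name ending 11 it was -0.14 (limma, adjusted p = 0.84) and with the ending as a covariate -0.15 (limma, adjusted p = 0.83). The other probe set, 1386956_at, gave -0.20 ± 0.06 (limma, adjusted p = 0.13). Within groups Scarb1 followed Abca1 on 1383355_at (r = 0.724, rho = 0.683, permutation p = 1e-05 and 2e-05, adjusted p = 1.3e-04 and 3.3e-04), and r was 0.694 without the 2 farthest arrays and 0.609 after quantile normalization. The link was weaker on the other Abca1 probe sets. On 1382431_at, 1394490_at and 1384381_at r was 0.417, 0.398 and 0.394 (permutation, adjusted p = 0.06, 0.061 and 0.041). There rho was 0.456, 0.426 and 0.351 (permutation, adjusted p = 0.028, 0.045 and 0.093).

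Nr1h3, the gene of LXR alpha, did not pass the test with either compound at 24 h. It scored 1.48, 1.55, 1.68, 1.54 and 1.63 with triadimefon, 1.60, 1.62, 1.68, 1.67 and 1.62 with myclobutanil and 1.69, 2.08, 1.69, 1.65 and 1.77 in controls. Control array 2 was the high one. The differences were -0.20 ± 0.06 with triadimefon and -0.14 ± 0.06 with myclobutanil (limma, adjusted p = 0.051 and 0.2). The triadimefon difference was called without any 1 of control arrays 1 and 4 or triadimefon array 3 (-0.22 to -0.23, adjusted p of 0.024 to 0.044). Without control array 2 the differences were -0.12 and -0.062 (limma, adjusted p = 0.3 and 0.68), and after quantile normalization -0.083 and -0.049 (limma, adjusted p = 0.16 and 0.45). At 14 days the differences were 0.01 ± 0.06 with triadimefon and 0.13 ± 0.06 with myclobutanil (limma, adjusted p = 0.96 and 0.37), the second of which was 0.035 after quantile normalization and 0.068 without myclobutanil array 4. In controls Nr1h3 was higher at 24 h than at 6 h by 0.24 ± 0.06 (limma, adjusted p = 0.031), the 1 gene of the 4 called there (2.78% of probe sets). That call was lost without any 1 of 6 h control arrays 1, 3, 4 and 5 or 24 h control arrays 2 and 5. Between 24 h and 14 days 0 of the 4 genes was called in controls (0.238% of probe sets).

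**Figure D5:**
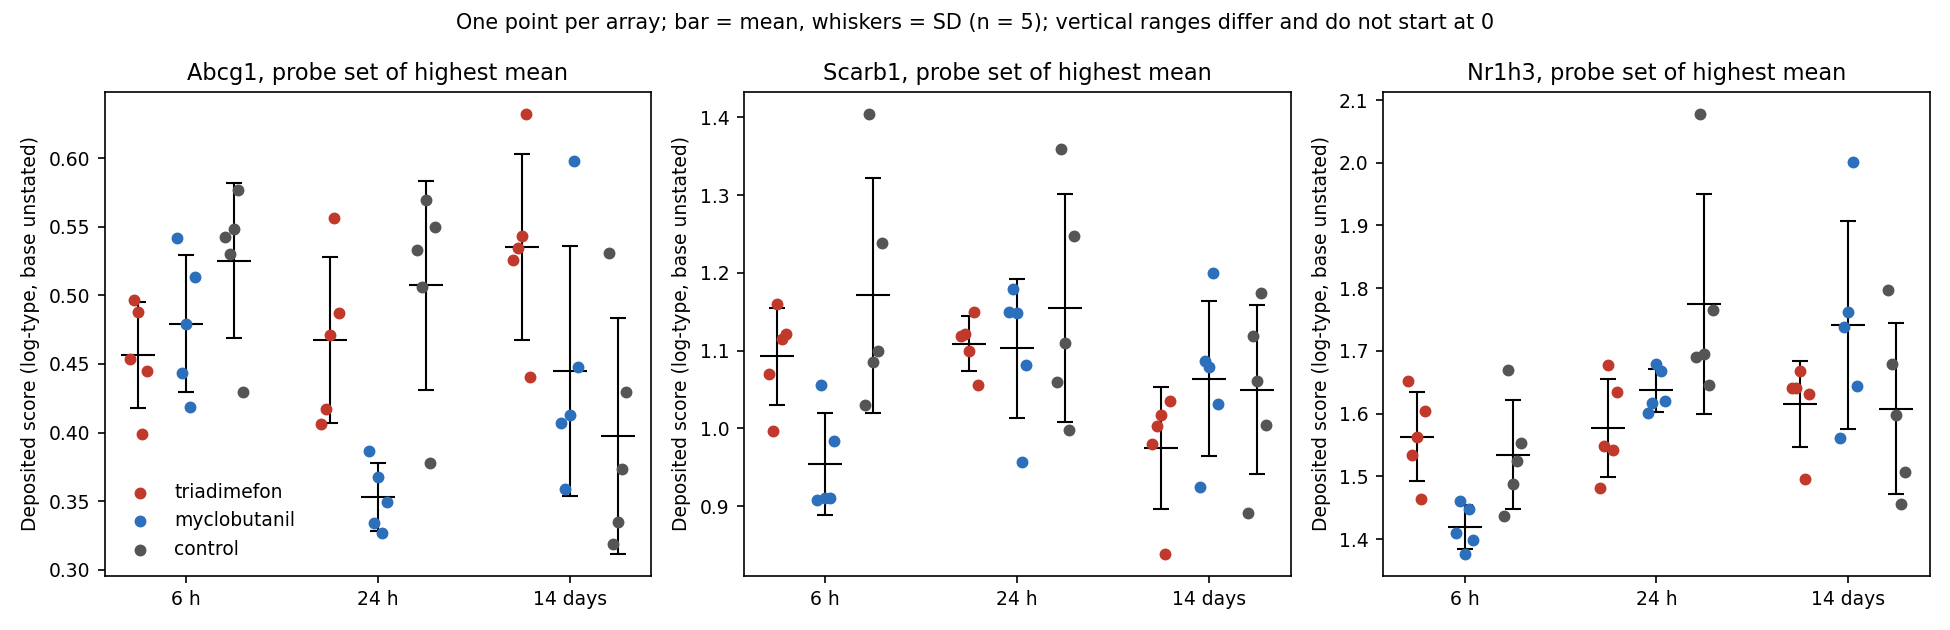
Deposited scores of Abcg1, Scarb1 and Nr1h3 on each array by time and, within a time, triadimefon, myclobutanil and control, with mean and SD (n = 5); the vertical ranges differ and do not start at 0. The myclobutanil arrays of 24 h are low for Abcg1, and control array 2 of 24 h is the highest for Nr1h3 at 2.08.

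Other LXR partners and targets were counted at the same times. With triadimefon at 24 h, where Abcg5 was higher, 0 of 13 measured genes rose and 4 fell: Cyp7a1, the rate-limiting enzyme of bile acid synthesis (-1.34 ± 0.27), Thrsp, a lipogenic regulator (-1.20 ± 0.23), Scd, which desaturates fatty acids (-1.09 ± 0.32), and Srebf1, the driver of lipogenesis (-0.85 ± 0.14). The median of the list was -0.20 against -0.01 over all genes, and 2.24% of all probe sets rose and 5.75% fell. Medians were also low for markers of hepatocytes (-0.19) and erythroid cells (-0.24) and for HDL and plasma cholesterol (-0.17). They were above 0 for canalicular partners (0.02), stellate (0.02) and small intestine markers (0.05), with the remaining lists in between. After quantile normalization 1381 probe sets were called higher and 1421 lower, in place of 694 and 1784. These counts are over all probe sets, not the lists. A low median was not confined to the LXR list, but 0 of the hepatocyte, erythroid and HDL genes were called. The LXR list mean was 1.15 to 1.41 per array with triadimefon and 1.61 to 2.03 in controls, without overlap. The list means of hepatocyte, erythroid and HDL genes overlapped those of controls. The cause of the fall was not tested. With myclobutanil at 24 h 0 rose and 3 fell, Cyp7a1 (-1.60 ± 0.27), Pltp, which transfers phospholipids between lipoproteins (-0.41 ± 0.07), and Mylip, which marks the LDL receptor for breakdown (-0.11 ± 0.04), with a median of -0.15, where 3.05% of all probe sets rose and 5.42% fell. At 14 days 2 rose with triadimefon and 0 fell, Lpl, which releases fatty acids from lipoproteins (0.46 ± 0.08), and Smpdl3a, a phosphodiesterase (0.33 ± 0.09), with a median of 0.02, where 3.89% of all probe sets rose and 2.8% fell. With myclobutanil at 14 days, and with either compound at 6 h, 0 of 13 was called in either direction by limma. Cyp7a1 is also under the control of bile acid signals, and Srebf1, Scd and Thrsp respond to insulin, so the list is not one of LXR alone.

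Of the partners of the pair in the canalicular membrane, Abcb1a rose in 5 of the 6 comparisons with controls. It was higher by 0.44 ± 0.09 with triadimefon and 0.73 ± 0.09 with myclobutanil at 6 h, by 0.78 ± 0.09 and 0.66 ± 0.09 at 24 h, and by 0.58 ± 0.09 with triadimefon at 14 days. Abcb1a thus passed at 6 h, where the Abcg5 and Abcg8 groups overlapped. Of all probe sets 0.738% were called higher with triadimefon and 0.271% with myclobutanil at 6 h. These shares were 2.24% and 3.05% at 24 h and 3.89% and 0.734% at 14 days, in the same order. With triadimefon at 24 h 2 of 8 measured genes rose and 1 fell, where 2.24% of all probe sets rose and 5.75% fell. Beside Abcb1a, Abcb4, the phospholipid floppase of bile, was higher by 0.35 ± 0.09 and Abcg2, a drug exporter, lower by -0.29 ± 0.09. Abcb11, the bile salt export pump, and Abcc2, an exporter of conjugates, were not called in any of the 6 comparisons.

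Of 11 measured genes of HDL and plasma cholesterol, 1 fell with myclobutanil at 24 h, Lipc, the hepatic lipase (-0.39 ± 0.11), and 1 with triadimefon at 14 days, Apoa4, an apolipoprotein (-0.94 ± 0.19). A single gene of 11 is near the share of all probe sets called in these comparisons (8.47% and 6.69%). Of 12 genes of sterol storage and trafficking, 0 rose and 3 fell with myclobutanil at 24 h, namely Npc2, which carries cholesterol out of lysosomes (-0.34 ± 0.08), Osbpl11, an oxysterol-binding protein relative (-0.31 ± 0.09), and Cav1, the caveolar coat protein (-0.11 ± 0.03). There 3.05% of all probe sets rose and 5.42% fell, against 2.24% and 5.75% with triadimefon at 24 h. With triadimefon at 24 h Nceh1, a cholesterol ester hydrolase, rose (0.32 ± 0.10), and Osbpl11 (-0.43 ± 0.09) and Stard5, a sterol carrier (-0.26 ± 0.06), fell. Stard5 was also lower with triadimefon at 14 days (-0.25 ± 0.06), and Osbpl11 with myclobutanil at 6 h (-0.48 ± 0.09). Each was the 1 gene of 12 called there, where 2.8% and 0.11% of all probe sets fell, in that order. Of 9 transcription factors of sterol and bile acid genes, Srebf2, the driver of cholesterol synthesis, rose with triadimefon at 24 h (0.20 ± 0.05). Nr5a2 (LRH-1), which acts on Cyp7a1, fell with myclobutanil at 24 h (-0.18 ± 0.04) and rose with triadimefon at 14 days (0.15 ± 0.04). A single factor of 9 in each comparison is near the share of all probe sets called there (7.98%, 8.47% and 6.69% in that order).

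Markers of other cell types were also set beside the Abcg5 and Abcg8 levels at 14 days. The 4 measured markers of small intestine, the other main site of the pair, had mean scores of -0.18 to 0.02 over all arrays. Their list mean was -0.11 to -0.08 per array with triadimefon and -0.06 to 0.02 in controls, and 1 of 4, Vil1, fell (-0.09). Kupffer cell markers were not called with triadimefon (0 of 9, median -0.01). Of 3 bile duct markers Epcam rose with triadimefon (0.54) and with myclobutanil (0.44), while Krt19 and Krt7 had mean scores of -0.08 and -0.11 and were not called. Of 5 endothelial markers Pecam1 rose with triadimefon (0.15). At 14 days 3.89% of all probe sets rose and 2.8% fell with triadimefon, and 0.734% rose with myclobutanil. A single gene of so short a list is not read as a result about its cell type. The part of these cell types in the triadimefon differences was not tested.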

How the data were processed

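Liver RNA was measured on 45 Affymetrix Rat Genome 230 2.0 arrays. The authors deposited 1 score per probe set and array. Per the labels' protocols biotin-labelled cRNA was hybridised; summarisation, normalization and log base are not given in the sources used here. A difference of 1 score is 2-fold only if the base is 2.

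Groups followed the sample titles. Of 31099 probe sets 57 Affymetrix controls were left out. limma 3.58.1 (R 4.3.3) fitted 1 mean per group over 45 arrays, with moderated variances and Benjamini-Hochberg adjustment over 31042 probe sets per comparison. Called means an adjusted p under 0.05. Errors after ± are the fit's standard errors unless SD is named. The fit was tested on simulated data. Precision is limited by the number of arrays.

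The members and lists were chosen with earlier results of these arrays known. Of 102 list entries 87 matched; the others were not used here. Genes of a list were named when called, at most the 4 of largest difference per comparison. Within-group correlations used 100000 permutations within groups (SciPy 1.17.1, numpy 2.4.6, seed 7) over 66 pairs. Same-numbered arrays did not deviate together throughout: correlations of their deviations ran from -0.374 to 0.344, so the numbers were not taken to pair rats. Array file names end in 11 on 36 arrays, 12 on 7, 21 on 1 and 31 on 1. The ending was tried as a covariate. The other alternatives are named in the closing section.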

Additional observations from a re-analysis of the deposited data

Results flagged for a closer look

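Among 54 sets of 5 arrays (the 6 genes by 9 groups), 6 held an array whose gap to the next exceeded 0.71 of the set's range, Dixon's 95% value; chance gives about 1 in 20. Array 3 of the 24 h controls was high for Abcg8, at 0.381 against -0.106 for the next. Array 2 of the same controls was high for Nr1h3, at 2.08 against 1.77. Array 4 of triadimefon at 14 days was low for Nr1h3 (1.496 against 1.63) and for Scarb1 (0.839 against 0.980), and it was also the array with the highest Abcg5 and Abcg8. For Abca1 the low arrays were number 5 of myclobutanil at 14 days (0.906 against 1.57) and number 3 of the 14 days controls (0.900 against 1.53); both belong to the 13 arrays that scored low on this probe set in all groups.

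The effect on Abcg1 differed between 24 h and 14 days by an interaction test with both compounds, by 0.177 with triadimefon and by 0.201 with myclobutanil.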

How the results depend on the processing

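Alternatives changed 1 choice at a time. The calls counted in this section are over all 6 genes. Since Abcg5 and Abcg8 were chosen from these values, the counts show only how calls move with the processing. They are no evidence about the pair. The replicate block changed no call on the members: the Abcg5 difference with triadimefon stayed at 0.72 at 24 h and 0.86 at 14 days, and the counts of all probe sets with a replicate block were 2573 and 2065. A variance trend with robust moderation was also run. After quantile normalization the Abcg5 difference with myclobutanil at 24 h was 0.51. It was 0.48 both among probe sets above the median level and with the file-name ending as a covariate. In each of these settings the count there was 2 of the 6 genes. Of the 6 genes, quantile normalization called 1 with myclobutanil at 6 h, 1 for the change of the triadimefon effect between 6 h and 24 h, and 0 for the changes of either effect between 24 h and 14 days. Probe sets above the median level gave 2 with triadimefon at 24 h and 1 for the triadimefon change between 6 h and 24 h, as did the ending as a covariate (1). In fits of the groups compared alone, triadimefon minus myclobutanil at 14 days was 1.003 for Abcg5 and 0.82 for Abcg8. The count of genes called was 0 there, and also 0 for the control change to 24 h and both changes to 14 days. At an adjusted p under 0.01, 0 genes were called with myclobutanil at 24 h, for both changes to 14 days and for the control change to 24 h. With the mean over a gene's probe sets, 0 were called with myclobutanil at 24 h and for both changes to 14 days. At 6 h the Abcg5 difference with myclobutanil was -0.21 with the ending as a covariate and -0.39 among arrays of ending 11, where triadimefon minus myclobutanil was 0.22 for Abcg5 and 0.18 for Abcg8. Ending 11 alone left 0 for the triadimefon change to 14 days and for the control change to 24 h, and the ending as a covariate 0 for the control change. The cause of these shifts was not tested.

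Leaving out each array in turn gave triadimefon minus control of -0.14 to 0.0306 for Abcg5 and -0.14 to 0.0131 for Abcg8 at 6 h, 0.64 to 0.83 for Abcg5 and 0.33 to 0.48 for Abcg8 at 24 h, 0.68 to 0.99 for Abcg5 and 0.48 to 0.78 for Abcg8 at 14 days. The ranges were, for myclobutanil minus control of -0.0432 to 0.12 for Abcg5 and -0.0947 to 0.0611 for Abcg8 at 6 h, 0.40 to 0.59 for Abcg5 and 0.20 to 0.35 for Abcg8 at 24 h, -0.24 to -0.0485 for Abcg5 and -0.24 to -0.10 for Abcg8 at 14 days. For triadimefon minus myclobutanil they were -0.15 to -0.031 for Abcg5 and -0.12 to 0.0104 for Abcg8 at 6 h, 0.19 to 0.29 for Abcg5 and 0.0808 to 0.18 for Abcg8 at 24 h, 0.82 to 1.13 for Abcg5 and 0.65 to 0.95 for Abcg8 at 14 days. All sign changes in these ranges were at 6 h. Genes called ranged from 2 to 3 with triadimefon at 14 days, from 1 to 2 with either compound at 24 h, from 0 to 2 for the myclobutanil change to 14 days, and from 0 to 1 for both triadimefon changes and both control changes.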
